A study of Mus musculus with 2 samples.

Results

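The nuclear genes for the proteins of the mitochondrial ribosome were examined for NRF1 binding sites in mouse skeletal muscle. Members were all protein-coding RefSeq genes of mm10 whose symbol starts with Mrpl or Mrps followed by a digit, which gave 78 of 21000 protein-coding genes. Of these, 49 had an Mrpl symbol and are called the large subunit, and 29 had an Mrps symbol and are called the small subunit. NRF1 occupancy had been profiled by chromatin immunoprecipitation and sequencing (ChIP-seq), in which an antibody recovers a DNA-binding protein together with the DNA it occupies. The series holds 2 libraries from wild-type mouse skeletal muscle, both labelled with the NRF1 antibody, and the study worked on adult male mice. For replicate 2 the study's reporting summary gives input DNA in place of an immunoprecipitation, in conflict with its label, and the names of the peaks point to replicate 1. A single list of 3226 peaks was available for analysis, so no value below has a replicate error. The depth behind the peaks is unknown, an absent peak may be an unoccupied site or one under the calling threshold, and a peak list holds no expression values by which the labelled tissue could be checked against its markers.

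Mitochondria carry ribosomes of their own, which translate the few respiratory-chain proteins encoded by mitochondrial DNA. The ribosomal RNAs come from that DNA, whereas every protein of the mitochondrial ribosome is encoded in the nucleus, made in the cytosol and imported. The transcription factor NRF1 (nuclear respiratory factor 1) binds a GC-rich palindrome as a dimer and is known for acting at promoters of nuclear genes for mitochondrial proteins. Many proteins of the mitochondrial ribosome have a bacterial counterpart, and the others were added during the evolution of mitochondria.

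To ask which of these genes carried NRF1 at the promoter, peak summits were placed relative to the annotated transcription starts. The window taken as promoter reached from 1000 bp upstream to 100 bp downstream of a start, and a promoter peak had its summit inside. NRF1 promoter peaks were found at 26 of the 78 genes, a share of 33.3% (Wilson 95% interval 23.9 to 44.4%, counting error over genes only). Over all protein-coding genes 2804 of 21000 had one, which is 13.4%. Among large-subunit genes 16 of 49 had a promoter peak, or 32.7% (21.2 to 46.6%), and among small-subunit genes 10 of 29, or 34.5% (19.9 to 52.7%). The shares of both subunits thus lay within each other's intervals. Subunit by symbol differs from place in the ribosome for a few proteins, since the products of Mrps30 and Mrps18a sit in the large subunit and that of Mrps36 belongs to the 2-oxoglutarate dehydrogenase complex. With these genes moved or left out, the shares were 33.3% for the large and 34.6% for the small subunit.

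The genes were next divided by whether their product has a bacterial counterpart, taken from the standard names of the proteins. Of the 3 relatives of bacterial protein bS18 this counts Mrps18c, its direct counterpart, and leaves Mrps18a and Mrps18b among the mitochondrial proteins. With a counterpart 15 of 46 genes had a promoter peak (32.6%, 20.9 to 47%), against 11 of 32 without one (34.4%, 20.4 to 51.7%). With all 3 counted the shares were 35.4% (17 of 48) and 30% (9 of 30), so that their order turned. Both classes held strong and weak peaks. Among the former were Mrpl9 with a fold enrichment of 31.8 and Mrps21 with 5.97, and among the latter Mrpl49 with 25 and Mrpl41 with 4.25.

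**Figure D1:**
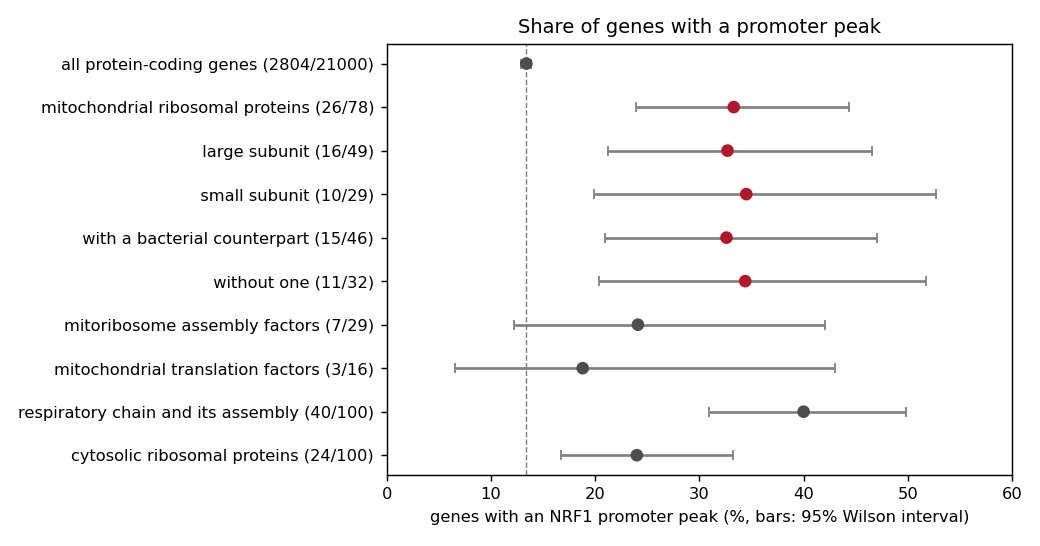
Share of genes with an NRF1 promoter peak in percent, with the number of genes in brackets. The respiratory-chain and cytosolic ribosomal lists were taken by symbol alone. Points are shares, error bars are 95% Wilson intervals, red marks the mitochondrial ribosomal protein genes and the classes they were divided into, and the dashed line is the share over all protein-coding genes; the large subunit (32.7%) and the small subunit (34.5%) lie close together.

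Fold enrichment, the signal at the summit over that of the control as given by the authors, spread over most of the range seen at promoters. The 26 peaks had a median fold enrichment of 10.7, with quartiles of 8.54 and 16.3 and extremes of 4.25 and 31.8. The 2552 peaks in promoters of protein-coding genes had a median of 11.1 and quartiles of 7.92 and 16.4. Of the member peaks 13 lay above the median of all promoter peaks and 13 at or under it. The large subunit had a median of 11.6 (range 4.25 to 31.8) and the small subunit of 9.81 (5.97 to 23.6). The median −log10 q was 29.4 in the large and 20.5 in the small subunit. Widths ranged from 156 to 616 bp with a median of 326.5 bp, and no gene had more than 1 promoter peak.

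In the large subunit the strongest peak was that of Mrpl9, whose product is the counterpart of bacterial protein bL9. It had a fold enrichment of 31.8 and a −log10 q of 85.6, spanned chr3:94443002-94443524 and had its summit 50 bp before the start. Only a small part of promoter peaks were stronger, since 98.4% of those at protein-coding genes had a lower fold enrichment. Mrpl49, which encodes a protein found only in mitochondrial ribosomes, followed with a fold enrichment of 25 and a −log10 q of 94.4 at chr19:6057610-6057946, with the summit 37 bp before the start. The product of Mrpl32 is cut by the m-AAA protease before it joins the ribosome. Its peak at chr13:14612832-14613447 had a fold enrichment of 22.6, the highest −log10 q of the family at 125, and a summit 84 bp before the start. Mrpl17 encodes the counterpart of bL17, and its peak at chr7:105810972-105811318 had a fold enrichment of 20.1, a −log10 q of 75.3 and a summit 26 bp before the start. Mrpl57 had a fold enrichment of 17.2 and a −log10 q of 45.1 at chr14:57825991-57826285, with the summit 67 bp before the start. These 5 genes were the only large-subunit genes above the upper quartile of promoter peaks.

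Next in order came genes for several well-described parts of the large subunit. Mrpl45, whose product lies at the mouth of the exit tunnel and holds the ribosome to the inner membrane, had a fold enrichment of 13.2, and Mrpl30 had 12.8. Mrpl14, the counterpart of uL14 at the face between the subunits, had 11.8. Mrpl44, which encodes a protein with a ribonuclease III fold, had 11.4. The stalk that recruits translation factors was represented by Mrpl12 with 9.95 and Mrpl10 with 8.53, and Mrpl22, whose product lines the exit tunnel, had 8.62. Mrpl39, a relative of threonyl-tRNA synthetase, lay under the lower quartile of promoter peaks at 7.29, with a −log10 q of 11.8 at chr16:84735268-84735513, with the summit 104 bp before the start.

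The 3 weakest peaks of the large subunit lay at Mrpl36, Mrpl51 and Mrpl41. Mrpl36, the counterpart of bL36, had a fold enrichment of 6.79 and a −log10 q of 9.26 at chr13:73330932-73331117, with the summit 4 bp before the start. Mrpl51 had 4.72 and a −log10 q of 5.9 at chr6:125191696-125191853, and its summit was the farthest from a start in the family, at 410 bp before it. Mrpl41 had 4.25 and a −log10 q of 4.39 at chr2:24975059-24975240, with the summit 63 bp before the start. Mrpl41 and Mrpl51 stood near the bottom of the list, since 1.41% and 2.82% of promoter peaks at protein-coding genes had a lower fold enrichment.

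In the small subunit the strongest peak was that of Mrps18b, 1 of the 3 mammalian relatives of bacterial protein bS18. It had a fold enrichment of 23.6 and a −log10 q of 91.3 at chr17:35916202-35916816, and its summit lay 235 bp before the start. Of the other relatives, Mrps18a had a fold enrichment of 6.74 and Mrps18c had no promoter peak. Mrps24, which encodes the counterpart of uS3, had 19.3 and a −log10 q of 53.6 at chr11:5707450-5707816, with the summit 6 bp before the start. Mrps18b and Mrps24 were the only small-subunit genes above the upper quartile of promoter peaks. Mrps9, the counterpart of uS9, had 13.7 and a −log10 q of 24.6 at chr1:42851141-42851468, with the summit 4 bp before the start. Mrps33 had 12.2 and a −log10 q of 19 at chr6:39810795-39811023, and among the 26 promoter peaks its summit was the only one after the start, at 45 bp. Mrps12 encodes the counterpart of uS12 at the decoding centre, and its peak at chr7:28741903-28742351 had a fold enrichment of 9.96, a −log10 q of 23 and a summit 359 bp before the start.

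Lower values were measured at the remaining small-subunit genes. Mrps14, the counterpart of uS14, had a fold enrichment of 9.67. Mrps26 had 8.87 with the summit 2 bp before the start. Mrps6, the counterpart of bS6, had 8.56 with a −log10 q of 16 at chr16:92057847-92058368, and its summit lay 89 bp before the start. Mrps18a had, beside its 6.74, a −log10 q of 7.25 at chr17:46110886-46111041 and a summit 59 bp before the start. Mrps21, the counterpart of bS21, was the weakest of the small subunit with a fold enrichment of 5.97 and a −log10 q of 8.63 at chr3:95871502-95871717, with the summit 92 bp before the start.

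**Figure D2:**
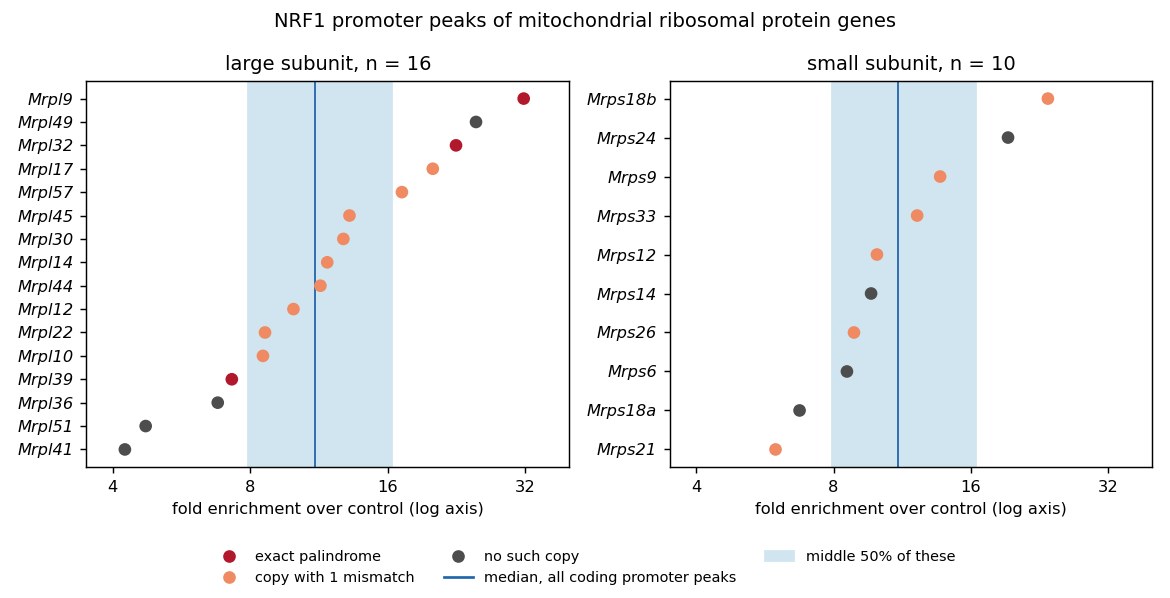
Fold enrichment over the control on a log axis for each of the 26 promoter peaks, by subunit. Each point is 1 peak, coloured by the best copy of the NRF1 motif within 100 bp of its summit, the blue line is the median of all 2552 promoter peaks of protein-coding genes (11.1) and the band spans their quartiles (7.92 to 16.4); Mrpl9 is highest at 31.8 and Mrpl41 lowest at 4.25.

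The sequence under the peaks was examined next. The most frequent self-complementary sequence of 10 bases in the list was GCGCATGCGC, the known NRF1 palindrome, which occurred within 100 bp of the summit at 349 of the 3226 peaks, and the next one at 91. As it equals its reverse complement, 1 search covered both strands. With at most 1 mismatch a copy lay within 100 bp of the summit at 18 of the 26 member peaks, or 69.2%, against 65.9% of promoter peaks of protein-coding genes. The large subunit had such a copy at 12 of 16 peaks (75%) and the small subunit at 6 of 10 (60%). Exact copies were found at Mrpl9, Mrpl32 and Mrpl39, which is 11.5% of member peaks against 11% of promoter peaks, and at no small-subunit gene.

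The exact copies and 1 example of each other reading are given below with 10 bases to either side, so that every reading found under a member peak can be seen with its surroundings. Sequences are from RefSeq for GRCm38 (mm10), 5′ to 3′ on the strand of the gene, with the copy in capitals. Substitutions are counted from position 1 at the 5′ end of the palindrome as read on that strand, with the palindrome's base first.
Mrpl9, chr3:94443298-94443327, + strand, exact: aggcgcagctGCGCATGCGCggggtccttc
Mrpl32, chr13:14613105-14613134, − strand, exact: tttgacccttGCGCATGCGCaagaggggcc
Mrpl39, chr16:84735350-84735379, − strand, exact: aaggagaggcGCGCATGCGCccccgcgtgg
Mrpl57, chr14:57826172-57826201, + strand, T6G: tttgaatcctGCGCAGGCGCagaaggcgtc
Mrps9, chr1:42851218-42851247, + strand, A5C: tgggaggtctGCGCCTGCGCagtctccagg
Mrpl44, chr1:79775973-79776002, + strand, T6C: agaagcacttGCGCACGCGCagtacactag
Mrps33, chr6:39810868-39810897, − strand, A5G: ttccggggacGCGCGTGCGCgaggtcagga
Mrps18b, chr17:35916646-35916675, − strand, G1A: aaacggcccgACGCATGCGCactgggagca
Mrpl22, chr11:58171621-58171650, + strand, C10T: gcctcggactGCGCATGCGTatagtcagcc
Mrpl32, chr13:14613084-14613113, − strand, G9T: agaggggcctGCGCATGCTCtgagcgagga
Mrps12, chr7:28742196-28742225, − strand, C2G: ggctttttctGGGCATGCGCacaccgactc

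Most mismatches fell in the middle or at the ends of the palindrome. The 23 copies at member peaks had only 6 readings when both strands were counted as 1. GCGCAGGCGC or its reverse complement, a change at position 5 or 6, was the commonest, with copies at Mrpl12, Mrpl14, Mrpl30, Mrpl57, Mrps21, Mrps26 and Mrps9. It was therefore present at 26.9% of member peaks, against 23.6% of promoter peaks of protein-coding genes. GCGCACGCGC was found at Mrpl17, Mrpl44, Mrpl45 and Mrps33, or 15.4% against 16.5%. ACGCATGCGC, with the change at an end, was found at Mrpl10, Mrpl17, Mrpl22, Mrpl32 and Mrps18b, or 19.2% against 7.01%. Mrps26 carried 2 copies of the commonest reading that overlapped each other, in the run gcgcaggcgcaggcgc across the start of the gene. The copies lay close to the summits, with the nearest one at a median of 14 bp and at most 32 bp from it, and at 14 of 18 peaks within 25 bp. A copy started 81 bp before the start of Mrpl12 and directly under the summit.

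Fold enrichment differed with the copy in the same order as at other promoters, with a wide spread. Member peaks with an exact copy had a median of 22.6 (n = 3, from 7.29 at Mrpl39 to 31.8 at Mrpl9), those with a copy of 1 mismatch 11.8 (n = 15, 5.97 to 23.6) and those without one 7.67 (n = 8, 4.25 to 25). Over all promoter peaks of protein-coding genes the medians were 14.3, 12.7 and 8.62 (n = 281, 1400 and 871). Mrpl39 had an exact copy and a low peak, whereas Mrpl49 and Mrps24 had strong peaks and no copy. The peaks without a copy were those of Mrpl49, Mrps24, Mrps14, Mrps6, Mrpl36, Mrps18a, Mrpl51 and Mrpl41. With 2 mismatches allowed 5 of these 8 peaks gained a copy (Mrps24, Mrps14, Mrpl36, Mrps18a and Mrpl41) and 3 did not (Mrpl49, Mrps6 and Mrpl51).

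Summits lay just before the start at most members. The median distance was 61 bp before the start, with quartiles of 91.25 and 14.5 bp before it. Over all protein-coding genes with a promoter peak the median was 59 bp before it, with quartiles of −132 and −12 bp (negative before the start). In all, 25 member summits lay before the start and 22 lay within 110 bp of it, without all-gene counts beside them. The median was 56.5 bp before the start in the large and 74 bp in the small subunit. Of the 23 copies of the motif 19 began before the start. By annotation 22 summits were intergenic, those of Mrps33 and Mrpl30 lay in untranslated exons of Mrps33 and of the neighbour Mitd1, that of Mrps21 in an exon of the non-coding gene C920021L13Rik, and that of Mrps12 in a coding exon of the neighbour Sars2.

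**Figure D3:**
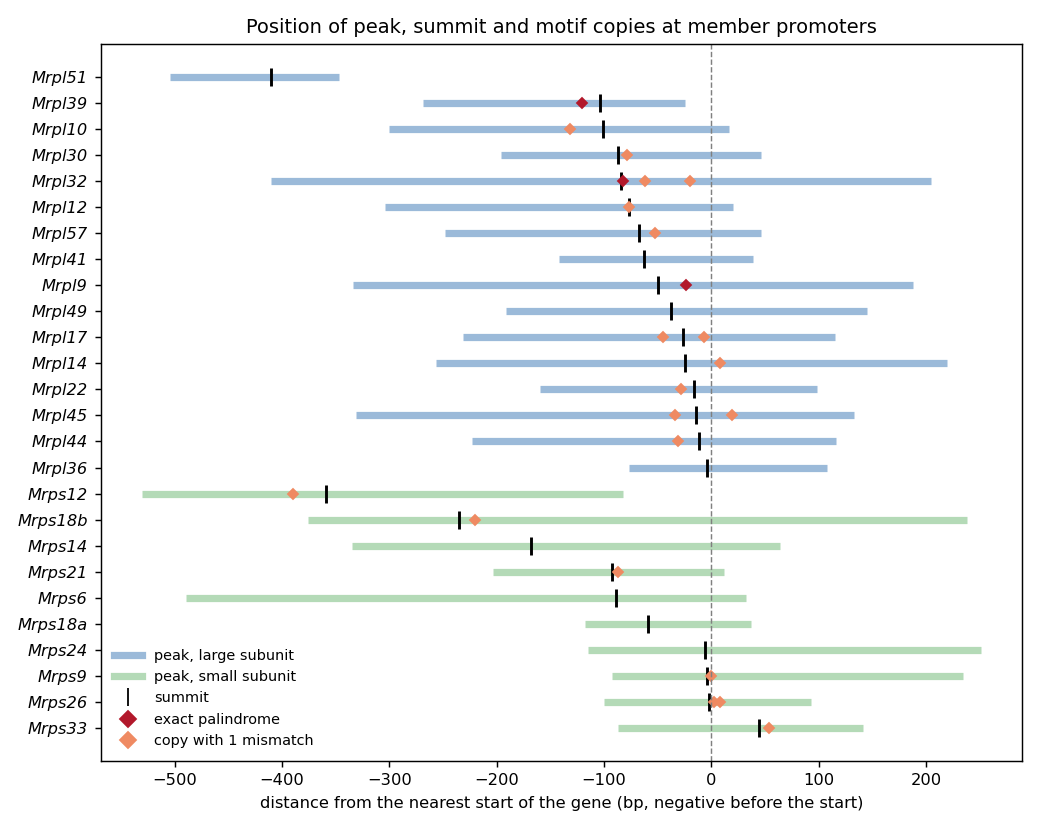
Peaks of the 26 member promoters against distance from the nearest start of the gene in bp, negative before the start. Horizontal bars are peaks (blue large subunit, green small subunit), black ticks are summits and diamonds are motif copies (red exact, orange with 1 mismatch); summits lie between 410 bp before and 45 bp after the start, and the diamonds sit within 32 bp of the summit at each gene that has any, counting the nearest.

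Several of these promoters also served another gene. The summit lay in the promoter of another protein-coding gene for 10 of the 26 members with a promoter peak (38.5%), against 602 of the 2804 protein-coding genes with one (21.5%). A peak between 2 such starts cannot be assigned to either gene from these data. The neighbour was on the opposite strand in 9 cases and on the same strand in 1. Large-subunit genes made up 8 of the 10, and 16 of the 26 members with a promoter peak.

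Some of the strongest member peaks were among those shared. Mrpl32 shared its peak with Psma2, a subunit of the core proteasome, whose start lies 205 bp away. Mrpl49 shared its peak with Fau, which encodes a precursor of a cytosolic ribosomal protein and starts 192 bp away, and Mrps18b shared its peak with Ppp1r10, a regulatory subunit of protein phosphatase 1, which starts 756 bp away. Mrpl57 and the kinetochore gene Ska3 start 76 bp apart, and the summit lay 9 bp before Ska3 and 67 bp before Mrpl57. In Mrpl30 the summit was also nearer to the neighbour, 21 bp after the start of Mitd1, and in Mrpl51 it lay 204 bp before the condensin gene Ncapd2 against 410 bp before Mrpl51. Mrpl14 with the cation channel gene Tmem63b, Mrpl10 with Lrrc46 and Mrpl41 with Pnpla7 were the other divergent pairs, with 131, 213 and 935 bp between the starts. Mrps6 and Slc5a3, a myo-inositol transporter gene, start 14 bp apart on the same strand. Their summit was again nearer to the neighbour, 75 bp before Slc5a3 against 89 bp before Mrps6. Mrps12 was a related case that the window did not count, since its divergent neighbour Sars2, the mitochondrial seryl-tRNA synthetase, starts 147 bp away and the summit lay 212 bp inside it. Mrps26 and Mrps21 faced non-coding genes that start 8 bp away.

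The intervals between the divergent starts of Mrpl32 and Mrpl49 are shown whole because the peaks were of like strength and the sequences were not alike in the motif. Both are from RefSeq for GRCm38 (mm10), 5′ to 3′ on the strand of the mitochondrial ribosomal gene, whose start follows the last base. Capitals mark copies of the palindrome with at most 1 mismatch.
Mrpl32 and Psma2, chr13:14613038-14613241, − strand: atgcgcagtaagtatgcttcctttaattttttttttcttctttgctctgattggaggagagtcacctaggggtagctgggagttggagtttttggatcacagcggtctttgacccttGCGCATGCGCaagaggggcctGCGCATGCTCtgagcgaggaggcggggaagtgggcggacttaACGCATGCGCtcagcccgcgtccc
Mrpl49 and Fau, chr19:6057756-6057946, − strand: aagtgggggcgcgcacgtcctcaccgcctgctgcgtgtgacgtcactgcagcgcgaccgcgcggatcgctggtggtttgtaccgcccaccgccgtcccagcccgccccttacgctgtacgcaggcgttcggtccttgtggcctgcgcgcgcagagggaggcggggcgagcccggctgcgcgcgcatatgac

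The interval of Mrpl32 held 3 copies, 1 of them exact, in 204 bases with a GC content of 54.9%. That of Mrpl49 held none in 191 bases with a GC content of 72.3%. Fold enrichments were 22.6 and 25.

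The other 52 genes had no promoter peak, 33 of the large and 19 of the small subunit. They were Mrpl1, Mrpl2, Mrpl3, Mrpl4, Mrpl11, Mrpl13, Mrpl15, Mrpl16, Mrpl18, Mrpl19, Mrpl20, Mrpl21, Mrpl23, Mrpl24, Mrpl27, Mrpl28, Mrpl33, Mrpl34, Mrpl35, Mrpl37, Mrpl38, Mrpl40, Mrpl42, Mrpl43, Mrpl46, Mrpl47, Mrpl48, Mrpl50, Mrpl52, Mrpl53, Mrpl54, Mrpl55 and Mrpl58 of the large subunit. Those of the small subunit were Mrps2, Mrps5, Mrps7, Mrps10, Mrps11, Mrps15, Mrps16, Mrps17, Mrps18c, Mrps22, Mrps23, Mrps25, Mrps27, Mrps28, Mrps30, Mrps31, Mrps34, Mrps35 and Mrps36. Most were far from any peak, with the nearest summit beyond 10000 bp at 46 genes and beyond 100000 bp at 26. The median was 110150 bp and the farthest was Mrps30 at 3297048 bp.

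Mrpl54 and Mrpl40 lay just outside the window. In Mrpl54 a summit with a fold enrichment of 21.5 and a −log10 q of 69.5 lay 303 bp after the start, in an intron of the gene at chr10:81266489-81266955, with 2 copies of the motif. That value would have placed it among the strongest of the large subunit, between Mrpl32 and Mrpl17. In Mrpl40 a summit with 8.75 and a −log10 q of 13.9 lay 192 bp after the start in an intron, at chr16:18876325-18876510, with 1 copy, and it was 305 bp before the start of the divergent gene Hira. With promoters of 2000 bp before to 500 bp after a start both genes were counted, which gave 28 of 78 genes and placed the large subunit at 36.7% and the small subunit at 34.5%, so that the order of the subunits turned.

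Divergent neighbours were also present among the genes without a peak. A divergent protein-coding start lay within 1000 bp at 17 of 52 of them and at 10 of 26 genes with a peak. No share over all protein-coding genes stands beside these counts, so they do not show whether such neighbours are usual. Mrpl46 and Mrps11, 1 gene of each subunit, start 42 bp apart on opposite strands, and no peak was called between them. Mrpl43 and Twnk, the mitochondrial DNA helicase, start 116 bp apart, and Mrpl47 and Ndufb5, a subunit of respiratory complex I, 308 bp apart, likewise without a peak in the promoter of the ribosomal gene.

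Promoter sequence was then compared between members with and without a peak. In the promoters 21 of 78 members held a copy with at most 1 mismatch, or 26.9%, against 12.1% of all protein-coding genes. Of these 21 genes 19 had a promoter peak (90.5%, Wilson 95% interval 71.1 to 97.3%). Among all protein-coding genes with a copy 75.4% had a promoter peak, a share within that interval. The 19 include Mrps6, whose copy lay 368 bp from the start and more than 100 bp from the summit. Its peak was therefore counted above as lacking a copy. Without a copy 7 of 57 members had a promoter peak (12.3%, 6.08 to 23.2%), against 4.8% of all such genes. By subunit, a peak was present at 12 of 13 large-subunit and 7 of 8 small-subunit genes that held a copy. Exact copies were present in the promoters of 3 members and in those of 1.75% of all protein-coding genes. All 3 members had a peak, as did 89.4% of all genes with an exact copy.

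Mrpl33 and Mrps22 were the only members with a copy in the promoter and no promoter peak. Their copies are shown for comparison with those under peaks, on the strand of the gene as above.
Mrpl33, chr5:31613929-31613958, + strand, G9C: accggaacccGCGCATGCCCcggaagtagt
Mrps22, chr9:98601945-98601974, − strand, G9A: acaagttcatGCGCATGCACacacaaacaa

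The copy of Mrpl33, whose product is the counterpart of bL33, started 12 bp before the start of the gene, and its reading is on the other strand the one found under the peak of Mrps12. Mrps22, which encodes a protein specific to mitochondrial ribosomes, had its copy 285 bp before the start, where the sequence within 200 bp of the copy had a GC content of 42.1% and a CpG ratio of 0.449, against 60.3% and 0.781 at Mrpl33. The nearest summits were 322790 and 38010 bp away.

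Base composition was compared because NRF1 sites are rich in CpG. A start was called CpG-rich when the sequence within 200 bp had a GC content of at least 55% and a ratio of observed to expected CpG of at least 0.65. Members with such a start numbered 60 of 78 (76.9%), against 49.4% of all protein-coding genes. Of these 60 members 20 had a promoter peak (33.3%, 22.7 to 45.9%), and of all genes with a CpG-rich start 24.2% had one, so the all-gene share lay within the interval of the members. In this class the large subunit stood at 13 of 36 (36.1%) and the small subunit at 7 of 24 (29.2%). Of the 18 members without a CpG-rich start 6 had a promoter peak (33.3%, 16.3 to 56.3%), against 2.69% of all such genes. They were Mrps18b, Mrps9, Mrps12, Mrpl44, Mrpl22 and Mrpl51, and the first 5 had a copy of the motif at the peak. These classes were not matched in composition, since the 18 members had a median GC content of 53.6% and a median CpG ratio of 0.675 and all genes of the class 51.4% and 0.279. Within the family the median GC content was 62.3% with a peak and 59.4% without, and the CpG ratio was 0.827 and 0.826.

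**Figure D4:**
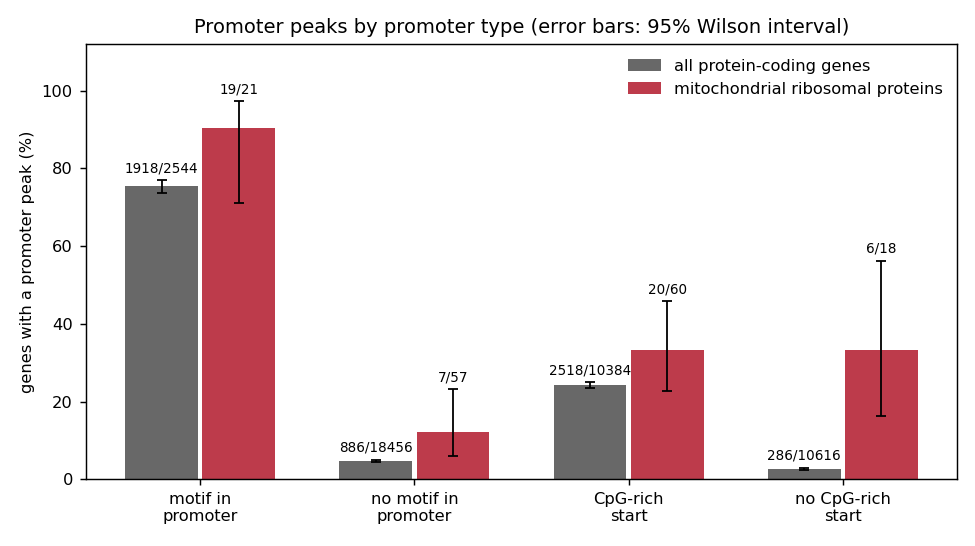
Share of genes with an NRF1 promoter peak in percent, by presence of the motif with at most 1 mismatch in the promoter and by base composition of the start. Grey bars are all protein-coding genes, red bars are mitochondrial ribosomal protein genes, error bars are 95% Wilson intervals and counts stand above; the red bar is 90.5% with the motif and 12.3% without it.

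Other genes of mitochondrial translation were described for comparison. Over all protein-coding genes 13.4% had a promoter peak, and that share lay within the interval of each list in this paragraph. Of 5 genes for mitochondrial ribosomal proteins with another kind of symbol 1 had a promoter peak (20%, 3.62 to 62.4%), namely Ptcd3 with a fold enrichment of 12.2. Of 29 factors that assemble or modify the mitochondrial ribosome 7 had one (24.1%, 12.2 to 42.1%). The strongest was that of Spg7, a subunit of the m-AAA protease that cuts the product of Mrpl32, with 22.2. Afg3l2, the gene for its partner subunit, had no promoter peak. Next after Spg7 came the GTPase gene Noa1 with 18.2 and the pseudouridine synthase gene Rpusd4 with 15.4. The GTPase genes Mtg2, Gtpbp10 and Mtg1 had 10.2, 6.08 and 4.84, and Fastkd2 had 6.75. Of 16 translation factors 3 had a promoter peak (18.8%, 6.59 to 43%), namely Mtfmt, which formylates the initiator tRNA, with 13.9, the membrane insertase gene Oxa1l with 11.9 and Lrpprc with 6.43. Mtif2, Mtif3, Tufm, Tsfm, Gfm1, Gfm2 and Mtrf1 were among the translation factor genes without one.

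Larger families lay to either side of the mitochondrial ribosome. Of 100 genes with the symbols of respiratory-chain subunits, assembly factors with those symbols included, 40 had a promoter peak (40%, 30.9 to 49.8%). Of 100 genes with the symbols of cytosolic ribosomal proteins 24 had one (24%, 16.7 to 33.2%), against 13.4% of all protein-coding genes. This list took every symbol that starts with Rpl, Rps or Rplp followed by a digit. Genes with such a symbol that do not encode a ribosomal protein were not removed. The intervals of both families overlapped that of the mitochondrial ribosomal protein genes (23.9 to 44.4%), and no test of the differences was run.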

How the data were processed

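Single-end reads had been mapped by the authors to mm10 with Bowtie, kept when unique, and peaks called with MACS2 against input DNA. The reporting summary lists 1 NRF1 library (replicate 1) and 1 input (replicate 2), against the label of the latter. The blacklist named is that of a human build, and the broad option named does not match the narrow layout of the list. The deposited values were the fold enrichment (a ratio to the control), the −log10 of the q-value and the summit offset in bp (deposited by the authors as a further column). A shallow control makes the fold enrichment uncertain, and unique mapping removes signal in repeats.

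Starts were those of known coding RefSeq transcripts of GRCm38, and each gene was measured from its nearest start. Shares were computed with Python 3.11.15, pandas 2.3.3, NumPy 2.4.6 and SciPy 1.17.1, and figures with Matplotlib 3.10.9. Motif search and promoter assignment were tested on simulated data. Genes are not replicates and there is 1 list, so no test was run, and Wilson intervals cover counting error only. Members and lists were chosen with earlier results of these data known. All members with a promoter peak are named with their fold enrichment. Full values are given for the 5 strongest and 3 weakest of each subunit and those with an exact palindrome. All members without a peak are listed. Alternatives were other promoter windows, any overlap, stricter peaks, other annotations, other subunit assignment, and other motif settings.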

Additional observations from a re-analysis of the deposited data

How the results depend on the processing

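The number of members with a promoter peak stayed between 24 and 28 of 78 under the 7 alternatives tried, which were wider or symmetric promoters, any overlap, a q-value of at most 1e-05, a fold enrichment of at least 5, predicted transcripts and GENCODE starts. The genes moved were Mrpl40 and Mrpl54 (gained), Mrpl41 and Mrpl51 (lost with stricter peaks) and Mrpl39 (lost with GENCODE starts, where Mrpl40 was gained). The large subunit ranged from 28.6% to 36.7% and the small subunit from 29.2% to 34.6%. Their order turned with the wider and the symmetric promoter (36.7% against 34.5%), with any overlap (34.7% against 34.5%) and among genes with a CpG-rich start (36.1% against 29.2%). GENCODE starts, the CpG-rich class and the count of all Mrps18 genes as bacterial counterparts were chosen after seeing the data.

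The motif results depended on the mismatches allowed. With no mismatch 11.5% of member peaks and with at most 2 mismatches 88.5% had a copy, against 69.2% with at most 1. At 2 mismatches 90.9% of promoter peaks of protein-coding genes had one too. In the promoters 3 members held an exact copy and 41 a copy with at most 2 mismatches (52.6% against 37.2% of all genes), against 21 with at most 1. The other 35 of 39 alternative values stayed inside the Wilson interval (shares), the binomial 95% interval of the median (medians) or 1.5 times (counts).

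No paired analysis was possible because the series has 1 peak list and no value per replicate, which also leaves no replicate to omit. Peaks near the threshold, such as those of Mrpl41 and Mrpl51, are limited by a depth that is unknown here.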
